A study of Mus musculus with 9 samples.

Results

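The collagen chain genes encode the polypeptides that wind in threes into the triple helices of collagen. They were taken as the genes of the array's platform table whose symbol is Col, then 1 or 2 digits, the letter a and a digit, on probe sets that name a single gene. Where a gene had several such probe sets, the one with the highest mean over the arrays was used. This gave 46 probe sets and 44 genes, of 19938 genes tested in all. They fall into 11 fibrillar chains, 6 basement membrane chains (type IV), 6 beaded filament chains (type VI), 9 FACIT chains (fibril-associated collagens with interrupted triple helices), 3 hexagonal network chains, 2 multiplexins, 4 transmembrane chains and 3 others. Col21a1, a further FACIT chain, was not analysed here.

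The samples were hearts of C57BL/6 mice, an inbred laboratory strain, labelled as cardiac muscle and taken 24 hours, 7 days and 10 weeks after birth. Total RNA was hybridised to Affymetrix Mouse Gene 1.0 ST arrays, 9 in all and 3 per age, with no treatment and no altered allele named for any age. Values are log2 intensities, so a difference of 1 is 2-fold. Probes differ between genes, so sums over genes and the naming of bright genes describe probe signal and not amounts of transcript. Nothing in the labels states whether each replicate was a separate animal, so p-values measure only the spread between these samples.

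Fibrillar collagens, above all types I and III in the heart, form the cables that tie muscle cells and bundles together and carry wall tension. Type IV chains form the sheet-like basement membrane around each cardiomyocyte and capillary, and type VI chains form fine beaded filaments between that sheet and the fibrils. FACIT chains sit on the surface of fibrils, while the multiplexins Col15a1 and Col18a1 lie in or beside basement membranes. Cardiac fibroblasts make most of the fibrillar collagen, and endothelial, mural and muscle cells contribute to the basement membrane.

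The 250 bases before the annotated transcript start (RefSeq, GRCm38.p6) are shown for 4 chains that the results turn on. These are Col3a1 and Col1a2 as fibrillar chains, Col6a1 as a beaded filament chain, and Col8a1, the 1 chain called higher at 10 weeks than at 7 days. Capitals mark the TATA box letters TATAAA, the CCAAT box letters CCAAT and the GC box letters GGGCGG, on either strand. Each sequence runs 5′ to 3′ along its gene. The windows are chr1:45311288-45311537 (+ strand) for Col3a1, chr6:4505368-4505617 (+ strand) for Col1a2, chr10:76726045-76726294 (− strand) for Col6a1 and chr16:57754738-57754987 (− strand) for Col8a1.
Col3a1: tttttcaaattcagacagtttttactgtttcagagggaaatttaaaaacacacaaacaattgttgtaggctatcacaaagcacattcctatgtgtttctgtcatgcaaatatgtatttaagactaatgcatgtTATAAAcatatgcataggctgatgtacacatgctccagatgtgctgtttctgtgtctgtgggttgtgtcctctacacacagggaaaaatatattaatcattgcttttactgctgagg
Col1a2: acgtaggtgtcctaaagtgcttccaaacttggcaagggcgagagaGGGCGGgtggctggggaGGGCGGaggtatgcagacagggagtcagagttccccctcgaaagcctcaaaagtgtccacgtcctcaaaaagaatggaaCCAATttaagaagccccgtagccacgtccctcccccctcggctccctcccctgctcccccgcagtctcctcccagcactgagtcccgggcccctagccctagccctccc
Col6a1: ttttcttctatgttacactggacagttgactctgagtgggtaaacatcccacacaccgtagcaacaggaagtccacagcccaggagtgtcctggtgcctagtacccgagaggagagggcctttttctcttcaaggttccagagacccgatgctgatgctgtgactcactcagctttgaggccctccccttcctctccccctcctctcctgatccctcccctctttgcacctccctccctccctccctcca
Col8a1: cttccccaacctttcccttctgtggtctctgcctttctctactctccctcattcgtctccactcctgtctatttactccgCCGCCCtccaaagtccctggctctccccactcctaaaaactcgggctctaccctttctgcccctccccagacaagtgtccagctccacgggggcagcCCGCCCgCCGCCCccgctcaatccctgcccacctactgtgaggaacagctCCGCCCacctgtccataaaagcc
The Col3a1 window held TATAAA at position −117 from the start and was 35.2% G and C. The Col1a2 window held GGGCGG at −205 and −188 and CCAAT at −109, and was 62.0% G and C. The Col8a1 window, with 60.8% G and C, held 4 GC boxes on the opposite strand, at −170, −73, −66 and −23. None of these letters was in the Col6a1 window, which was 56.0% G and C.

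RefSeq windows were matched to 35 of the 44 collagen genes. Among these 35, GGGCGG was in the windows of 21 genes, CCAAT in those of 13 and TATAAA in those of 5. The shares over all 32851 windows of the table were 32.7%, 33.8% and 12.4% in that order. These shares are per window, whereas a collagen gene was counted if any of its windows held the letters (38 windows in all), so the measures are not alike. Of 14 matched genes that were lower at 10 weeks than at 7 days, 7 held CCAAT, 8 held GGGCGG and 1 held TATAAA. Of 19 matched genes that changed in no comparison, 6, 11 and 4 did. These matches are descriptions of the letters. Col4a1 and Col4a2, whose chains assemble together, are annotated head to head with starts 21 bases apart. Col4a6 and Col4a5 are also divergent, with starts 1343 bases apart.

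Array medians lay between 4.876 and 4.924 and arrays of 1 age correlated at 0.9944 to 0.9978 over all genes. Cardiomyocyte markers were bright on all 9 arrays, with summed linear signals of 58773 to 64099 over 10 genes. The 7-day replicates stood apart from each other in some markers of tissue beside the heart. Ucp1, the heat-producing uncoupler of brown fat, measured 4.30, 11.23 and 9.27 on the 7-day replicates and 3.92 to 4.27 on the other 6 arrays. Adipoq, the fat hormone adiponectin, measured 3.91, 7.71 and 5.33 at 7 days. The liver gene Alb at 7.81 and the airway gene Scgb1a1 at 6.83 were also high on 7-day replicate 2, and Alb at 6.04 and Scgb1a1 at 5.83 on 24-hour replicates 3 and 1. Other liver and lung genes went both ways. On 7-day replicate 2 Apoa1 at 5.40 and Sftpa1 at 5.19 were the highest of that age, and Sftpc at 3.62 and Sftpb at 4.24 the lowest. On 24-hour replicate 3 Apoa1 at 4.59 was the lowest of its age. The fat hormone genes Adipoq and Retn were also raised on 10-week replicates 1 and 2. Adipoq measured 4.57 and 5.04 there, against 3.95 on replicate 3 and 3.75 to 3.78 at 24 hours. Retn, the hormone resistin, measured 6.14, 6.53 and 4.43 on the 10-week replicates, against 3.94 to 4.09 at 24 hours. Other fat genes did not set these arrays apart. Lep, a further fat hormone gene, measured 4.30, 4.24 and 4.38 on the 10-week replicates, and the fat marker Plin1 5.08, 5.01 and 5.01. Counts and main differences of the chains are therefore also given without 7-day replicates 2 and 3 and without 10-week replicates 1 and 2.

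With all arrays, collagen chains were mainly higher where they changed in the first week, and mainly lower where they changed after it. At 7 days against 24 hours, 6 of the 44 chains were higher and 0 lower. In the same comparison 5.27% of all 19938 genes were higher and 4.81% lower, at an adjusted p under 0.05 (limma, Benjamini and Hochberg). A further 5 chains passed only at an unadjusted p under 0.05, and 0 chains fell by at least 2-fold, as did 0.201% of all genes. Without 7-day replicate 2, 5 chains were higher and 1 lower over the first week. Without replicates 2 and 3 the first-week differences of the 6 higher chains were smaller, as given below. At 10 weeks against 7 days, 18 chains (40.9%) were lower and 1 higher, against 18.9% and 17.0% of all genes. Of the 18, 14 fell by at least 2-fold, as did 2.98% of all genes, and the higher chain rose by at least 2-fold, as did 2.07%. At 10 weeks against 24 hours, 16 chains were lower and 3 higher, against 20.6% and 19.5% of all genes, and 11 of the 16 fell by at least 2-fold, against 3.39%.

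Centring each array on its median gave 5247 higher and 3307 lower genes at 10 weeks against 7 days, in place of 3388 and 3777. The collagen chains were then 4 higher and 17 lower. The 3 comparisons share arrays in pairs, so they are not independent of each other. In RNA of whole hearts, fewer cells of a type and less RNA per cell cannot be told apart.

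**Figure D1:**
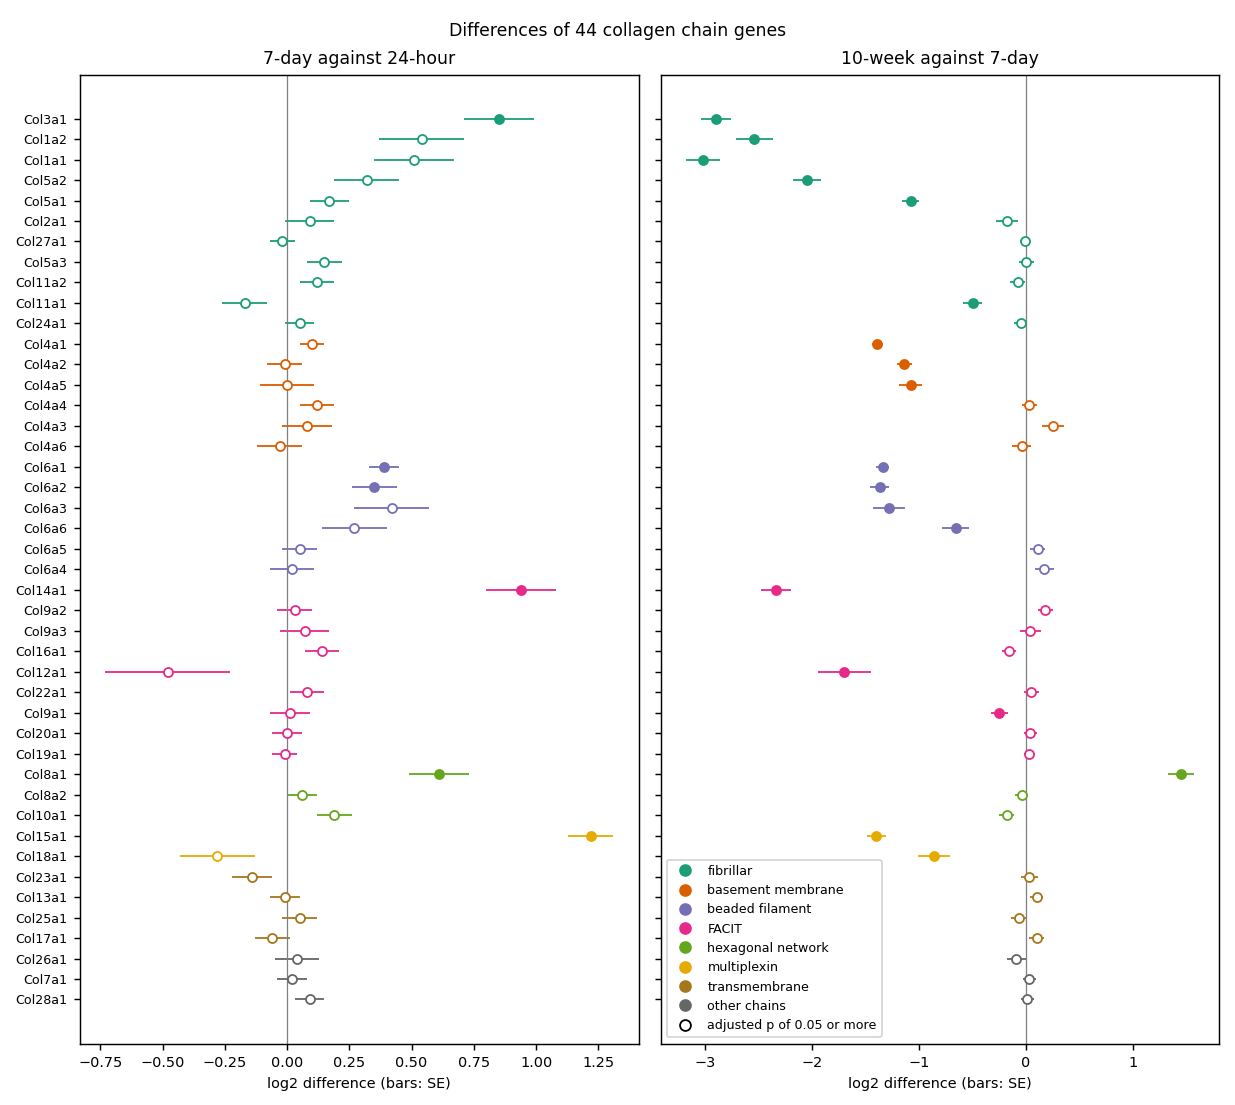
Log2 differences of the 44 collagen chain genes (points, with standard errors as bars) at 7 days against 24 hours on the left and 10 weeks against 7 days on the right, coloured by class, with open points at an adjusted p of 0.05 or more. The 6 filled points on the left lie to the right of 0, and 18 of the 19 filled points on the right lie to the left of it, with Col8a1 as the exception.

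The 3 calls of each chain gave 7 combinations. Of the 44 chains, 12 did not pass the test over the first week and were lower at 10 weeks than at both younger ages. Another 4 (Col3a1, Col6a1, Col6a2 and Col14a1) were higher at 7 days and then lower at 10 weeks than at either younger age. Col15a1 was higher at 7 days and at 10 weeks did not pass the test against 24 hours. Col8a1 alone was higher in all 3 comparisons. Col9a1 was lower only at 10 weeks against 7 days, Col9a2 and Col4a3 were higher only at 10 weeks against 24 hours, and 23 chains passed in none.

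The array has no detection flags here, so the difference of a dim probe set can be too small. Values on each array follow for the 28 chains whose mean over the 9 arrays lay above 5.569, the median over all tested genes, and for some others. Col11a2, at 5.805, was the last chain inside that limit and Col11a1, at 5.562, the first outside it.

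The fibrillar chains Col1a1, Col3a1 and Col1a2 had the 3 largest falls of all chains after the first week. Of the 11 fibrillar chains, 1 (9.09%) was higher at 7 days than at 24 hours, beside 5.27% of all genes. At 10 weeks 6 (54.5%) were lower than at 7 days and than at 24 hours, beside 18.9% and 20.6% of all genes. Their median differences over the 3 comparisons were 0.15, −0.50 and −0.68, beside −0.002, 0.039 and 0.038 for all genes. The summed linear signal of the 11 chains ran from 3804 to 4447 on the 24-hour arrays, from 4880 to 7448 on the 7-day arrays and from 1133 to 1314 on the 10-week arrays. Col3a1, Col1a2 and Col1a1, with the highest signals, weigh most in these sums, which do not stand for each chain.

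Col3a1, whose homotrimer forms type III collagen, the fine fibrils of distensible tissue, measured 10.47, 10.16 and 10.14 at 24 hours, 10.83, 11.38 and 11.12 at 7 days and 8.0, 8.29 and 8.33 at 10 weeks. The 3 ages did not overlap, and the 7-day arrays were the highest. Col3a1 was higher at 7 days than at 24 hours by 0.85 (SE 0.14, adjusted p = 0.00403). It averaged 8.21 ± 0.18 at 10 weeks and 11.11 ± 0.27 at 7 days (SD, n = 3 each; limma), 7.46-fold lower at 10 weeks (log2 difference −2.90, SE 0.14, adjusted p = 1.67e-07). Against 24 hours its 10-week level was lower by 4.14-fold (log2 difference −2.05). Col3a1 was the one fibrillar chain that passed the test in all 3 comparisons.

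Col1a1 and Col1a2 encode the α1 and α2 chains of type I collagen, the main stiff fibril of the heart. Col1a1 measured 10.12, 9.96 and 9.98 at 24 hours, 10.19, 10.89 and 10.49 at 7 days and 7.24, 7.57 and 7.70 at 10 weeks. Col1a2 measured 10.14, 9.91 and 9.86 at 24 hours, 10.14, 10.93 and 10.48 at 7 days and 7.77, 8.08 and 8.07 at 10 weeks. In both genes the 10-week arrays lay far below all others, and the 7-day arrays spread more widely than the 24-hour ones.

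Col1a1 had the largest fall of the 44 chains, 8.12-fold lower at 10 weeks than at 7 days (log2 difference −3.02, SE 0.16, adjusted p = 2.99e-07). Col1a2 was 5.83-fold lower (log2 difference −2.54, SE 0.17, adjusted p = 1.38e-06). Against 24 hours the differences at 10 weeks were −2.52 for Col1a1 and −2.00 for Col1a2. In the first week Col1a1 differed by 0.51 (adjusted p = 0.0843) and Col1a2 by 0.54 (adjusted p = 0.079), and neither passed the test. Without 7-day replicate 1, which leaves the arrays with fat transcripts, both passed, at 0.67 (adjusted p = 0.0247) for Col1a1 and 0.73 (0.0168) for Col1a2. Without replicate 2 neither did, at 0.32 (adjusted p = 0.221) and 0.34 (0.185), nor without replicates 2 and 3, at 0.17 (adjusted p = 0.787) and 0.17 (0.765).

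Type V chains co-assemble with type I and limit fibril width. Col5a2 measured 7.78, 7.77 and 7.69 at 24 hours, 7.78, 8.39 and 8.03 at 7 days and 5.86, 6.05 and 6.13 at 10 weeks. It was 4.15-fold lower at 10 weeks than at 7 days (log2 difference −2.05, SE 0.13, adjusted p = 1.02e-06). Col5a1, the partner chain, measured 7.31, 7.26 and 7.29 at 24 hours, 7.33, 7.61 and 7.42 at 7 days and 6.41, 6.43 and 6.29 at 10 weeks. The 10-week arrays of both chains lay below all 6 younger ones. Col5a1 was 2.11-fold lower at 10 weeks than at 7 days (log2 difference −1.08, SE 0.08, adjusted p = 2.27e-06). The first-week difference of Col5a2 passed only without 7-day replicate 1, which leaves the arrays with fat transcripts, at 0.46 (adjusted p = 0.0452). It was 0.15 (adjusted p = 0.488) without replicate 2 and 0.03 (0.998) without replicates 2 and 3.

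Col11a1, a minor fibrillar chain best known from cartilage, where it nucleates fibrils, measured 5.86, 5.87 and 5.80 at 24 hours, 5.56, 5.85 and 5.60 at 7 days and 5.06, 5.16 and 5.30 at 10 weeks. It fell by 0.50 at 10 weeks against 7 days (SE 0.09, adjusted p = 0.00125) and by 0.68 against 24 hours. The other 5 fibrillar chains passed no test. Col2a1, the main cartilage collagen, measured 6.77, 6.35 and 6.54 at 24 hours, 6.58, 6.76 and 6.60 at 7 days and 6.43, 6.56 and 6.39 at 10 weeks. Its 24-hour arrays overlapped both later ages, and the 10-week arrays lay just below the 7-day ones. Col27a1, a chain of cartilage and epithelia, measured 6.32, 6.28 and 6.28 at 24 hours, 6.29, 6.25 and 6.28 at 7 days and 6.26, 6.23 and 6.28 at 10 weeks. Col5a3, the third type V chain, measured 5.98, 5.84 and 5.79 at 24 hours, 5.98, 5.98 and 6.09 at 7 days and 6.08, 5.97 and 6.00 at 10 weeks. Col11a2, the partner of Col11a1 in cartilage, measured 5.82, 5.77 and 5.67 at 24 hours, 5.94, 5.83 and 5.85 at 7 days and 5.82, 5.70 and 5.86 at 10 weeks. These 3 chains were nearly flat, and Col24a1 ran from 5.37 to 5.56.

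**Figure D2:**
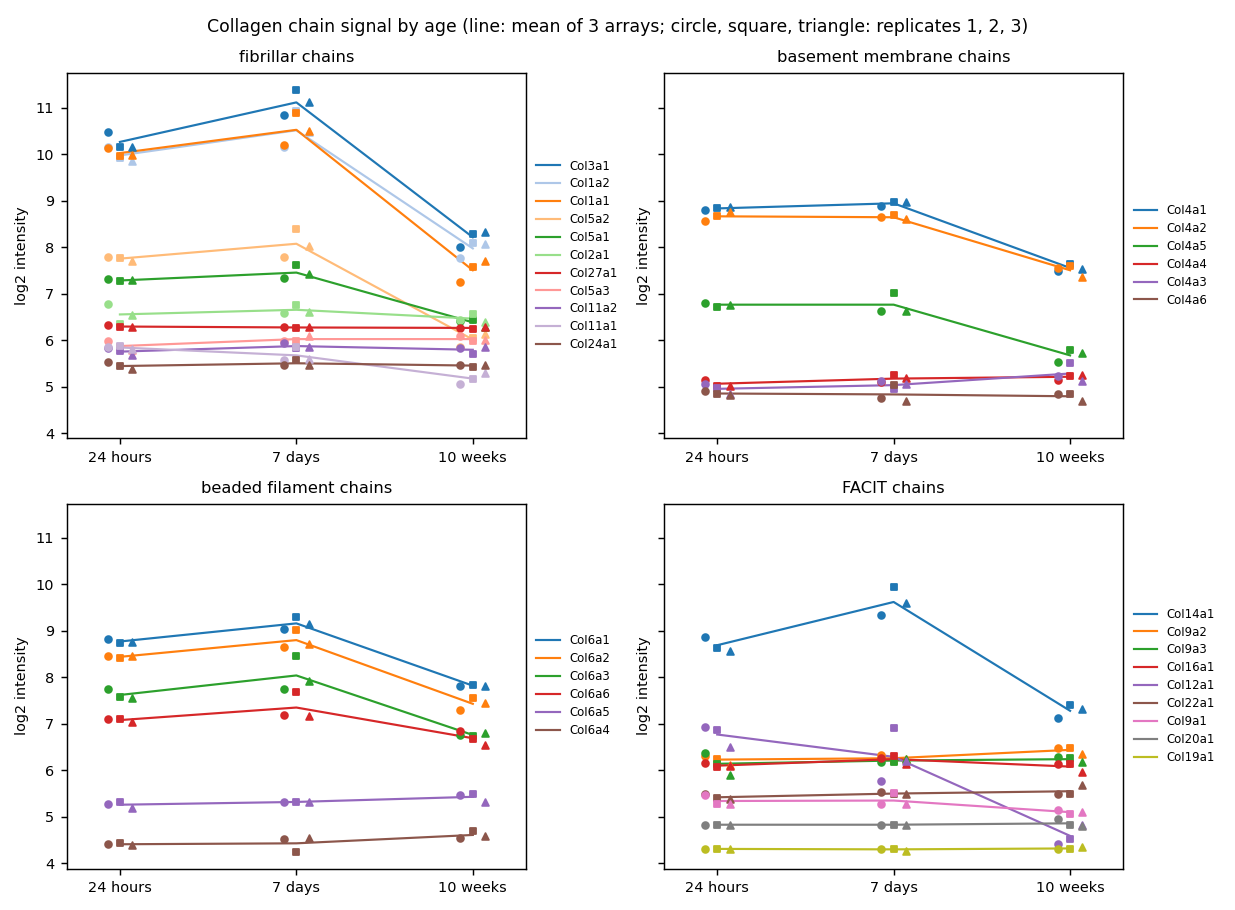
Log2 intensity of each fibrillar, basement membrane, beaded filament and FACIT chain on the 9 arrays (circle, square and triangle for replicates 1, 2 and 3) with lines through the means of 3 arrays per age. Col3a1, Col1a1, Col1a2 and Col14a1 have their highest means at 7 days and drop below their 24-hour arrays at 10 weeks, Col4a1 and Col4a2 are level over the first week, and most of the dimmer chains are flat.

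No type IV chain passed the test in the first week, and Col4a1, Col4a2 and Col4a5 fell after it by 1.39, 1.14 and 1.08 log2 units. Of the 6 chains, 0 passed at 7 days against 24 hours, where also 0 reached an unadjusted p under 0.05. At 10 weeks 3 were lower than at 7 days. At 10 weeks against 24 hours 3 were lower and 1 was higher. The median differences of the 6 over the 3 comparisons were 0.04, −0.56 and −0.57.

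Col4a1 and Col4a2 encode the widespread α1 and α2 chains of the basement membrane network. Col4a1 measured 8.80, 8.84 and 8.86 at 24 hours, 8.89, 8.96 and 8.96 at 7 days and 7.49, 7.63 and 7.52 at 10 weeks. Its replicates were closely grouped at every age, and the 10-week ones lay below all others. It averaged 7.55 ± 0.07 at 10 weeks and 8.94 ± 0.04 at 7 days (SD, n = 3 each; limma), 2.62-fold lower at 10 weeks (log2 difference −1.39, SE 0.05, adjusted p = 5.11e-08). Its first-week difference was 0.10 (adjusted p = 0.336), and 0.06 (0.925) without 7-day replicates 2 and 3.

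Col4a2 measured 8.57, 8.66 and 8.75 at 24 hours, 8.64, 8.68 and 8.61 at 7 days and 7.54, 7.60 and 7.36 at 10 weeks. The 24-hour and 7-day values overlapped and the 10-week values lay below both. Col4a2 was 2.21-fold lower at 10 weeks than at 7 days (log2 difference −1.14, SE 0.07, adjusted p = 9.14e-07).

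Col4a5, an X-linked chain of the α3α4α5 and α5α5α6 networks, measured 6.80, 6.72 and 6.75 at 24 hours, 6.63, 7.02 and 6.63 at 7 days and 5.52, 5.78 and 5.72 at 10 weeks. It was 2.12-fold lower at 10 weeks than at 7 days (log2 difference −1.08, SE 0.11, adjusted p = 2.60e-05), close in size to Col4a2. Col4a3, a partner of Col4a5 in kidney and lung membranes, measured 5.05, 4.97 and 4.84 at 24 hours, 5.11, 4.94 and 5.05 at 7 days and 5.22, 5.51 and 5.12 at 10 weeks. It was higher at 10 weeks than at 24 hours by 0.33 (SE 0.10, adjusted p = 0.0272). That call was lost without 24-hour replicate 2 (adjusted p = 0.0646), 24-hour replicate 3 (0.104) or 10-week replicate 2 (0.0792). Without 10-week replicate 3 Col4a3 was also higher at 10 weeks than at 7 days (0.33, adjusted p = 0.0353). Col4a4 ran from 5.01 to 5.25 and Col4a6 from 4.68 to 5.04 on the 9 arrays, and neither passed a test.

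Among the type VI chains, Col6a1 and Col6a2 rose in the first week and 4 chains fell after it. Of the 6 chains, 2 (33.3%) were higher at 7 days than at 24 hours, beside 5.27% of all genes. At 10 weeks 4 (66.7%) were lower than at 7 days and than at 24 hours, beside 18.9% and 20.6% of all genes. Their median differences over the 3 comparisons were 0.31, −0.97 and −0.62. Col6a1, Col6a2 and Col6a3 encode the α1, α2 and α3 chains of the common type VI monomer, and Col6a4, Col6a5 and Col6a6 encode chains related to α3.

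Col6a1 measured 8.82, 8.73 and 8.77 at 24 hours, 9.04, 9.29 and 9.15 at 7 days and 7.82, 7.84 and 7.81 at 10 weeks. The 3 ages did not overlap. It was higher at 7 days than at 24 hours by 0.39 (SE 0.06, adjusted p = 0.00382) and 2.53-fold lower at 10 weeks than at 7 days (log2 difference −1.34, SE 0.06, adjusted p = 1.50e-07).

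Col6a2 measured 8.46, 8.41 and 8.45 at 24 hours, 8.66, 9.01 and 8.71 at 7 days and 7.30, 7.55 and 7.44 at 10 weeks. It was 2.58-fold lower at 10 weeks than at 7 days (log2 difference −1.37, SE 0.09, adjusted p = 1.65e-06). Its first-week difference of 0.35 (SE 0.09, adjusted p = 0.0413) was near the threshold. That call was lost without any 1 of the 24-hour replicates 1, 2 and 3 (adjusted p = 0.106, 0.137 and 0.106), 7-day replicates 2 and 3 (0.0957 and 0.0751) or 10-week replicate 3 (0.0523).

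Col6a3 measured 7.74, 7.57 and 7.55 at 24 hours, 7.74, 8.45 and 7.93 at 7 days and 6.75, 6.73 and 6.80 at 10 weeks. Its 10-week values were tightly grouped and below all 6 younger arrays, with a log2 difference from 7 days of −1.28 (SE 0.15, adjusted p = 6.10e-05). The first-week difference of 0.42 did not pass (adjusted p = 0.12). It passed without 7-day replicate 1, which leaves the arrays with fat transcripts, at 0.57 (adjusted p = 0.0333), and was 0.21 (0.187) without replicate 2 and 0.12 (0.729) without replicates 2 and 3.

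Col6a6 measured 7.10, 7.10 and 7.03 at 24 hours, 7.20, 7.68 and 7.17 at 7 days and 6.84, 6.68 and 6.55 at 10 weeks. It fell by 0.66 at 10 weeks against 7 days (SE 0.13, adjusted p = 0.002) and by 0.39 against 24 hours (adjusted p = 0.0319). The 24-hour call was lost without any 1 of the 24-hour replicates 1, 2 and 3 (adjusted p = 0.0875, 0.0853 and 0.064) or 10-week replicates 2 and 3 (0.077 and 0.105). A second Col6a6 probe set averaged 6.5 at 24 hours, 6.94 at 7 days and 5.63 at 10 weeks, a larger fall than on the one used. Col6a5 ran from 5.19 to 5.50 and Col6a4 from 4.24 to 4.70 on the 9 arrays, and neither passed a test.

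Among the FACIT chains the change rested on Col14a1 and Col12a1. Of the 9 chains, 1 (11.1%) was higher at 7 days than at 24 hours, beside 5.27% of all genes. At 10 weeks 3 (33.3%) were lower than at 7 days, beside 18.9%. At 10 weeks against 24 hours 2 (22.2%) were lower and 1 (11.1%) higher, near or below the 20.6% and 19.5% of all genes. The median differences of the 9 were 0.03, 0.03 and 0.01, near those of all genes.

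Col14a1, which coats type I fibrils and limits their fusion, measured 8.86, 8.64 and 8.56 at 24 hours, 9.33, 9.94 and 9.60 at 7 days and 7.12, 7.40 and 7.31 at 10 weeks. The 3 ages did not overlap. It was 1.92-fold higher at 7 days than at 24 hours (log2 difference 0.94, SE 0.14, adjusted p = 0.00218). At 10 weeks it was 5.08-fold lower than at 7 days (log2 difference −2.34, SE 0.14, adjusted p = 6.32e-07), a fall in the range of Col1a2 and Col5a2.

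Col12a1, another coat of type I fibrils, common where tissue is under tension, measured 6.93, 6.86 and 6.51 at 24 hours, 5.76, 6.91 and 6.19 at 7 days and 4.42, 4.52 and 4.82 at 10 weeks. Its 7-day replicates spread over more than 1 log2 unit and overlapped those of 24 hours. The 10-week arrays lay below all others. Col12a1 was 3.25-fold lower at 10 weeks than at 7 days (log2 difference −1.70, SE 0.25, adjusted p = 0.000301) and 4.53-fold lower than at 24 hours. The first-week difference of −0.48 did not pass (adjusted p = 0.313), and without 7-day replicate 2 it was −0.79 and passed (adjusted p = 0.0242). Over the first week the fitted differences of the 2 fibril-coating chains were thus −0.48 for Col12a1 and 0.94 for Col14a1.

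The 3 type IX chains, which decorate cartilage fibrils, moved little. Col9a1 measured 5.47, 5.27 and 5.27 at 24 hours, 5.27, 5.51 and 5.27 at 7 days and 5.14, 5.06 and 5.11 at 10 weeks, and fell by 0.25 at 10 weeks against 7 days (adjusted p = 0.0434). That call was lost without 24-hour replicates 2 (adjusted p = 0.0574) or 3 (0.0545), 7-day replicates 2 (0.156) or 3 (0.0501), or 10-week replicates 1 (0.0687), 2 (0.107) or 3 (0.0744). Without 7-day replicate 2 Col9a1 was instead lower at 10 weeks than at 24 hours (−0.23, adjusted p = 0.0278).

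Col9a2 measured 6.31, 6.25 and 6.12 at 24 hours, 6.33, 6.21 and 6.24 at 7 days and 6.48, 6.47 and 6.36 at 10 weeks. It was higher at 10 weeks than at 24 hours by 0.21 (adjusted p = 0.0327). The call was lost without 24-hour replicates 2 (adjusted p = 0.0662) or 3 (0.121), or 10-week replicates 1 (0.0876) or 2 (0.0803). Without 10-week replicate 3 Col9a2 was also higher at 10 weeks than at 7 days (0.22, adjusted p = 0.0436). Col9a3, the remaining type IX chain, measured 6.37, 6.13 and 5.91 at 24 hours, 6.18, 6.18 and 6.25 at 7 days and 6.28, 6.26 and 6.18 at 10 weeks. Col16a1, a minor fibril-associated chain, measured 6.15, 6.07 and 6.09 at 24 hours, 6.27, 6.30 and 6.14 at 7 days and 6.14, 6.14 and 5.96 at 10 weeks. In both the 3 ages overlapped or met, and neither passed a test.

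The chain with the highest mean signal was taken from each of the 4 main classes, and the log2 ratio of each pair within an array was compared over the 3 ages. These chains were Col3a1, Col4a1, Col6a1 and Col14a1, which gave 6 pairs. The test concerns these 4 genes and not their classes, and Col14a1 at −2.34 after the first week lay far from the FACIT median of 0.03. The exact permutation test rearranged the 9 arrays over the ages in 1680 ways, so that the smallest p it allows is 0.00357. All 6 ratios differed between ages by more than the spread between replicates. The exact permutation p-values were 0.00357 to 0.0143, and 0.00714 to 0.0143 after adjustment over the 6 pairs. The 6 ratios are formed from 4 genes, so they are not independent of each other. The fits of the single genes above rest on the same arrays, so these p-values are not separate support.

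Col3a1 relative to Col4a1 was higher at 7 days than at 24 hours by 0.75 and lower at 10 weeks than at 7 days by 1.51 log2 units (change −1.51). Relative to Col6a1, Col3a1 changed by 0.46 in the first step and −1.56 in the second. Within the same arrays Col3a1 thus gained on Col4a1 and Col6a1 up to 7 days and lost more than that by 10 weeks. Relative to Col14a1 it changed by −0.09 and then −0.55, so that the ratio of these 2 chains moved little over the first week.

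Col4a1 relative to Col6a1 changed by −0.28 in the first week and by −0.05 after it. The larger of these 2 changes lay in the first week, a step that was not tested by itself. Relative to Col14a1, Col4a1 changed by −0.83 and then 0.96, and Col6a1 by −0.55 and then 1.01. Largest SDs of these log2 ratios within an age were 0.08 to 0.27 (n = 3). Without 7-day replicates 2 and 3, the first-week change of Col3a1 was 0.51 relative to Col4a1, 0.30 relative to Col6a1 and −0.07 relative to Col14a1. That of Col4a1 was then −0.22 relative to Col6a1 and −0.59 relative to Col14a1, and that of Col6a1 relative to Col14a1 −0.37, with no test on a single 7-day array.

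The multiplexins differed from each other. Col15a1, which lies between basement membrane and fibrils around muscle cells and capillaries, measured 8.03, 7.86 and 8.04 at 24 hours, 9.0, 9.35 and 9.25 at 7 days and 7.77, 7.78 and 7.85 at 10 weeks. It was 2.34-fold higher at 7 days than at 24 hours (log2 difference 1.22, SE 0.09, adjusted p = 2.56e-05), the largest first-week change of the 44 chains and the only one of at least 2-fold, which 0.426% of all genes reached. At 10 weeks it was 2.64-fold lower than at 7 days (log2 difference −1.40, SE 0.09, adjusted p = 8.51e-07). Its 10-week and 24-hour arrays did not overlap but differed by −0.18, which did not pass (adjusted p = 0.141).

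Col18a1, a basement membrane chain from which endostatin is cut, measured 6.86, 6.78 and 6.75 at 24 hours, 6.52 on each of the 3 arrays at 7 days and 6.04, 5.26 and 5.65 at 10 weeks. The 3 values at 7 days were identical to 6 decimals. It fell by 0.86 at 10 weeks against 7 days (SE 0.15, adjusted p = 0.00113) and by 1.14 against 24 hours (adjusted p = 0.000136). The first-week difference of −0.28 did not pass (adjusted p = 0.351), although the ages did not overlap. Identical values on 2 or more arrays occurred in 51.5% of all genes, in 4 of the 21 collagen chains called in some comparison and in 20 of the 23 called in none. The share was 31.5% of genes above the median signal and 71.6% of those not above it. Of the 23 chains, 13 were not above that median, so the contrast is not separate from signal.

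Col8a1, a short-chain network collagen of vessel walls and of the Descemet membrane of the eye, rose at both steps. It measured 5.45, 5.47 and 5.25 at 24 hours, 5.86, 6.29 and 5.84 at 7 days and 7.31, 7.46 and 7.56 at 10 weeks. The 3 ages did not overlap. Col8a1 was higher at 7 days than at 24 hours by 0.61 (SE 0.12, adjusted p = 0.0109), a call that was lost without 24-hour replicate 3 (0.54, adjusted p = 0.0501). It averaged 7.44 ± 0.12 at 10 weeks and 6.00 ± 0.25 at 7 days (SD, n = 3 each; limma), 2.73-fold higher at 10 weeks (log2 difference 1.45, SE 0.12, adjusted p = 6.69e-06). Against 24 hours it was 4.15-fold higher at 10 weeks. Col8a2, the other type VIII chain, stayed between 5.43 and 5.59, and Col10a1, the type X chain of growth plates, between 3.64 and 3.97, and neither passed a test.

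**Figure D3:**
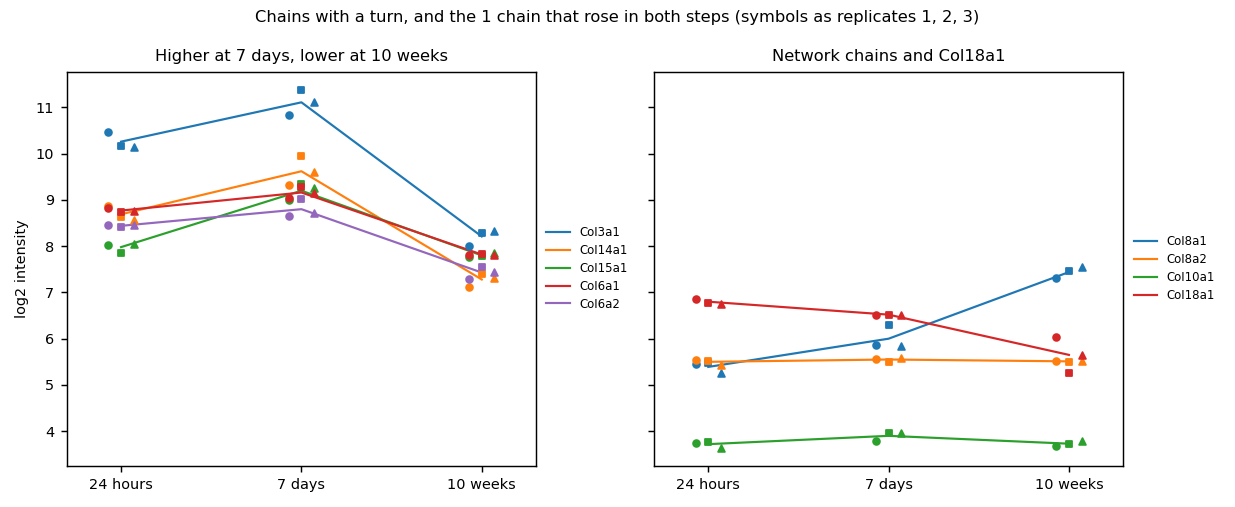
Log2 intensity on the 9 arrays (circle, square and triangle for replicates 1, 2 and 3, lines through the means) of the 5 chains that were higher at 7 days and lower afterwards, on the left, and of the network chains and Col18a1, on the right. The 10-week means of Col3a1, Col14a1, Col6a1 and Col6a2 lie below their 24-hour means, Col15a1 ends near its 24-hour mean, and Col8a1 climbs to 7.44 at 10 weeks.

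The 23 chains called in no comparison had means of 3.78 to 6.55 over the 9 arrays. Their log2 differences lay between −0.18 and 0.19 and their standard errors were 0.10 or less. Of the 23, 10 had a mean above the median of all genes. Besides Col2a1, Col27a1, Col5a3, Col11a2, Col9a3 and Col16a1, these were Col26a1, Col7a1, Col23a1 and Col13a1. Col26a1 measured 6.22, 6.22 and 6.20 at 24 hours, 6.40, 6.07 and 6.28 at 7 days and 6.20, 6.22 and 6.05 at 10 weeks. Col7a1, which forms the anchoring fibrils of skin, measured 6.13, 6.10 and 6.02 at 24 hours, 6.13, 6.08 and 6.10 at 7 days and 6.10, 6.09 and 6.21 at 10 weeks. The ages of both overlapped. Col23a1, a transmembrane chain, measured 5.97, 5.91 and 5.86 at 24 hours, 5.86, 5.86 and 5.61 at 7 days and 5.75, 5.90 and 5.76 at 10 weeks. Col13a1, a transmembrane chain of neuromuscular junctions, measured 5.79 on each array at 24 hours, 5.79, 5.79 and 5.76 at 7 days and 5.83, 5.93 and 5.90 at 10 weeks, where its values lay above all others without passing the test. None of the 4 transmembrane chains and none of the 3 other chains passed a test.

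The spread of the 7-day arrays touches the first-week results. Of the 18 chains lower at 10 weeks than at 7 days, 17 had their highest 7-day value on replicate 2, against 24 of all 44 chains and 27.8% of all genes. The 18 were called with these same 7-day values, and the 44 include them. No share was taken over all genes called lower in the same way, so this count is a description only. The median deviation of replicate 2 from the 7-day mean over the 18 chains was 0.242. Replicate 2 also had the highest Ucp1, Adipoq, Alb and Scgb1a1 of the 7-day arrays, and the highest smooth muscle markers, with Myh11 at 6.88, 8.42 and 7.45 and Cnn1 at 6.08, 8.32 and 7.34 on replicates 1, 2 and 3. The part of these tissues in the collagen signal was not tested.

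Without 7-day replicate 2, the first-week differences were 1.15 for Col15a1, 0.78 for Col14a1, 0.72 for Col3a1, 0.46 for Col8a1 and 0.32 for Col6a1, and these passed the test. Without replicates 2 and 3 a single 7-day array was left, assumed to vary like those of the other ages. Of the 6 higher chains, only Col15a1 then passed the test, at 1.03 (adjusted p = 0.00412). The differences were 0.64 for Col14a1 (adjusted p = 0.0655), 0.57 for Col3a1 (0.145), 0.47 for Col8a1 (0.122), 0.27 for Col6a1 (0.112) and 0.22 for Col6a2 (0.396). Col12a1 was lower in that comparison, at −1.01 (adjusted p = 0.0498). The first-week count of higher chains was 4 without 24-hour replicate 3, where Col6a2 and Col8a1 were lost, and 10 without 7-day replicate 1.

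The later fall was measured again without these arrays. Without 7-day replicates 2 and 3, 17 chains were lower at 10 weeks than at 7 days, all of the 18 except Col9a1. Col1a1 then differed by −2.69, Col3a1 by −2.62, Col1a2 by −2.17, Col14a1 by −2.05 and Col12a1 by −1.17, and Col8a1 was higher by 1.58. A fit without 10-week replicates 1 and 2 was added after the data were seen, with the single array left assumed to vary like the others. In it 18 chains were lower at 10 weeks than at 7 days, with Col9a1 lost and Col16a1 gained, and 15 were lower than at 24 hours, with Col6a6 lost. The differences from 7 days were then −2.82 for Col1a1, −2.78 for Col3a1, −2.31 for Col14a1 and 1.57 for Col8a1. The 2 higher calls of Col4a3 and Col9a2 against 24 hours were lost, at 0.17 (adjusted p = 0.284) and 0.14 (0.31), and Col22a1 was gained. In the first week Col6a2 was lost (adjusted p = 0.0581) and Col18a1 was called lower (log2 difference −0.28, adjusted p = 0.0134).

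**Figure D4:**
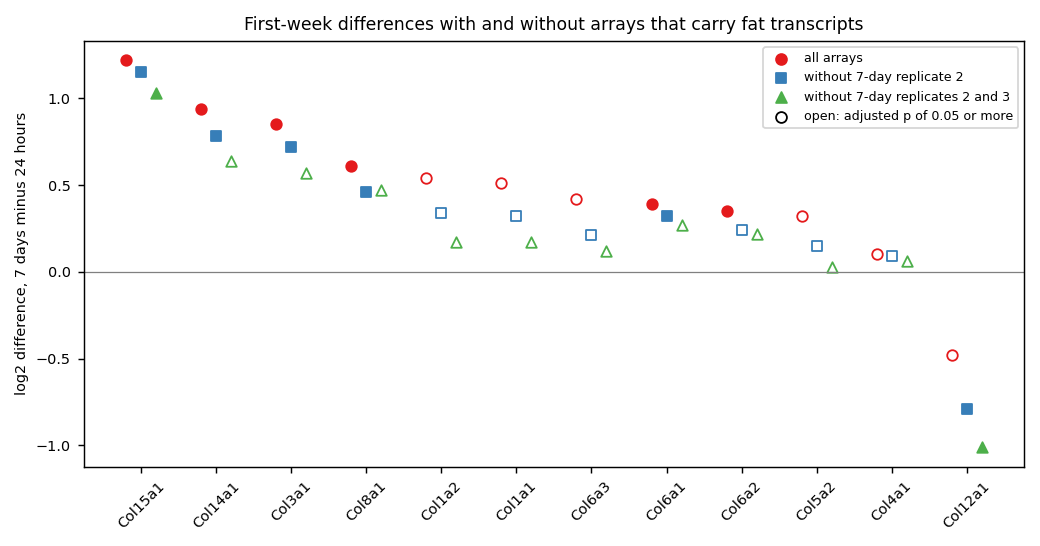
Log2 differences at 7 days against 24 hours for 12 chains with all arrays (circles), without 7-day replicate 2 (squares) and without 7-day replicates 2 and 3 (triangles), open where the adjusted p was 0.05 or more. Col15a1 stays above 1 in each setting, the differences of Col1a1 and Col1a2 shrink to 0.17, and that of Col12a1 moves from −0.48 to −1.01.

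Of 17 genes tested that fold and hydroxylate collagen chains, 3 were higher and 2 lower at 7 days than at 24 hours, where 5.27% and 4.81% of all genes were. At 10 weeks against 7 days 2 were higher and 12 lower, beside 17.0% and 18.9% of all genes, and at 10 weeks against 24 hours 3 were higher and 11 lower, beside 19.5% and 20.6%. Serpinh1, the collagen chaperone HSP47, measured 7.67, 7.67 and 7.66 at 24 hours, 8.0, 8.13 and 8.08 at 7 days and 6.81, 6.97 and 6.74 at 10 weeks. It was higher by 0.41 at 7 days (adjusted p = 0.00387) and fell by 1.23 at 10 weeks against 7 days (adjusted p = 3.39e-07), the same order of ages as Col6a1.

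Among the prolyl hydroxylases, which stabilise the helix, the directions differed. P4ha3 measured 7.49, 7.65 and 7.59 at 24 hours, 6.90, 7.16 and 6.90 at 7 days and 4.25, 4.67 and 4.58 at 10 weeks. It was lower at 7 days than at 24 hours by 1.51-fold (adjusted p = 0.00869) and at 10 weeks than at 7 days by 5.61-fold (adjusted p = 1.08e-07). P4ha1 was higher at 10 weeks than at 24 hours by 0.92 (adjusted p = 3.74e-05). Of the prolyl 3-hydroxylases, P3h2 fell by 0.79 at 7 days against 24 hours (adjusted p = 0.00872) and P3h1 fell by 0.85 at 10 weeks against 24 hours (adjusted p = 9.58e-05). Crtap, a partner of P3h1, fell by 1.01 at 10 weeks against 7 days (adjusted p = 4.06e-05). Colgalt2, which adds galactose to hydroxylysine, was higher at 7 days than at 24 hours by 0.69 (adjusted p = 0.00128). Without 7-day replicates 2 and 3, of these first-week changes only that of Colgalt2 passed, at 0.81 (adjusted p = 0.0288). The others were then 0.34 for Serpinh1 (0.153), −0.67 for P4ha3 (0.0842) and −0.79 for P3h2 (0.147).

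Of 11 genes that cut propeptides or crosslink fibrils, 3 were higher and 1 lower at 7 days than at 24 hours, beside 5.27% and 4.81% of all genes. At 10 weeks 2 were higher and 7 lower than at 7 days, beside 17.0% and 18.9%, and 1 was higher and 7 were lower than at 24 hours, beside 19.5% and 20.6%. The 7 lower than at 7 days became 4 without 7-day replicate 3, and 6 without replicate 1 or replicate 2. Lox, the lysyl oxidase that starts crosslinks, measured 7.75, 7.78 and 7.39 at 24 hours, 7.36, 8.68 and 7.65 at 7 days and 4.51, 4.56 and 4.81 at 10 weeks, 9.65-fold lower at 10 weeks than at 7 days (adjusted p = 6.44e-06). Its 10-week arrays lay below all others, and 7-day replicate 2 was the highest. Loxl1, a related oxidase, was higher by 0.74 at 7 days (adjusted p = 0.00699) and fell by 1.35 at 10 weeks (adjusted p = 2.69e-05). Bmp1, the C-propeptide protease, fell by 1.17 at 10 weeks against 7 days (adjusted p = 2.60e-06).

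Pcolce2 and Pcolce, both enhancers of that protease, moved in opposite directions by 10 weeks. Pcolce was lower at 10 weeks than at 24 hours by 1.74-fold (adjusted p = 1.96e-05). Pcolce2 measured 5.59, 5.25 and 5.14 at 24 hours, 7.68, 7.89 and 7.74 at 7 days and 8.27, 8.44 and 8.36 at 10 weeks, and was 5.45-fold higher at 7 days than at 24 hours (adjusted p = 2.77e-06). Col8a1 and Pcolce2 were both higher in all 3 comparisons. Tgm2, a transglutaminase that crosslinks matrix, was lower by 1.62-fold at 7 days than at 24 hours (adjusted p = 0.00093) and higher by 0.52 at 10 weeks than at 7 days (adjusted p = 0.00104). Without 7-day replicates 2 and 3, the first-week differences were 2.35 for Pcolce2 (adjusted p = 0.00163), −0.87 for Tgm2 (0.0124) and 0.46 for Loxl1 (0.0635).

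Of 11 genes for collagen breakdown and its inhibitors, 1 was higher and 1 lower at 7 days than at 24 hours, beside 5.27% and 4.81% of all genes. At 10 weeks 3 were higher and 6 lower than at 7 days, beside 17.0% and 18.9%, and 3 were higher and 5 lower than at 24 hours, beside 19.5% and 20.6%. Mmp14, a membrane-bound collagenase, was 4.94-fold lower at 10 weeks than at 7 days (adjusted p = 1.16e-07). The inhibitor Timp1 was 2.45-fold lower (adjusted p = 0.000168). Timp4, an inhibitor abundant in heart, measured 6.73, 6.73 and 6.60 at 24 hours, 5.67, 5.12 and 5.19 at 7 days and 7.79, 8.21 and 7.85 at 10 weeks. It had its lowest values at 7 days, where Col3a1 had its highest. Timp4 fell by 1.36 at 7 days against 24 hours (adjusted p = 0.00031), and Timp2, a further inhibitor, was higher by 0.47 (adjusted p = 0.0105). With 7-day replicates 2 and 3 left out these differences were −1.02 for Timp4 (adjusted p = 0.0229) and 0.26 for Timp2 (0.202).

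Of 8 collagen receptors tested, 1 was higher and 1 lower at 7 days than at 24 hours, beside 5.27% and 4.81% of all genes. At 10 weeks 2 were higher and 4 lower than at 7 days, beside 17.0% and 18.9%, and 3 were higher and 4 lower than at 24 hours, beside 19.5% and 20.6%. Ddr1, a discoidin receptor best known from epithelia, fell by 0.72 at 7 days (adjusted p = 9.28e-05) and by 0.82 at 10 weeks against 7 days (adjusted p = 3.71e-06). Ddr2, its relative on fibroblasts, was higher by 0.90 at 7 days than at 24 hours (adjusted p = 0.00367), with a difference of −0.02 at 10 weeks against 7 days (adjusted p = 0.948). The integrin subunit Itga2 was 2.36-fold lower at 10 weeks than at 7 days (adjusted p = 2.51e-06). The leukocyte receptor Lair1 was higher by 0.66 (adjusted p = 3.20e-05). With 7-day replicates 2 and 3 left out the first-week differences were −0.71 for Ddr1 (adjusted p = 0.0153) and 0.64 for Ddr2 (0.149).

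Markers of cells that make collagen are given beside the chains, and the shares of all genes called are those given above. Of 12 fibroblast markers, 8 were higher at 7 days than at 24 hours, 2 were higher and 6 lower at 10 weeks than at 7 days, and 8 were higher and 1 lower at 10 weeks than at 24 hours. The 6 lower at 10 weeks than at 7 days became 4 without 7-day replicate 2 and 3 without replicate 3. The summed linear signal of the 12 markers was 5139 to 6044 at 24 hours, 8935 to 10218 at 7 days and 9128 to 10428 at 10 weeks. Dcn, the brightest of them, averaged 11.47, 12.3 and 12.33 over the 3 ages, and Gsn 9.33, 9.24 and 10.87. Tcf21 averaged 7.66, 7.97 and 6.42, and Dpt 9.48, 10.72 and 9.78, so the sum does not stand for each marker. Of 10 endothelial markers, 3 were higher and 1 lower at 7 days than at 24 hours, 6 were lower at 10 weeks than at 7 days, and 2 were higher and 5 lower at 10 weeks than at 24 hours, with sums of 6364 to 6423, 6717 to 7043 and 5591 to 6023 over the 3 ages. Of 10 mural markers, 2 were higher in the first comparison, 1 was higher and 4 lower in the second, and 3 were higher and 3 lower in the third. The 4 lower in the second became 6 without 7-day replicate 1, and 3 without replicate 2 or replicate 3. The sums of the mural markers were 7843 to 8240, 6774 to 8816 and 5053 to 5756. Acta2, the brightest mural marker at 24 hours, weighs most in these sums and averaged 12.23, 11.79 and 9.88 over the 3 ages. Rgs5 went the other way, with means of 8.85, 10.15 and 10.47, so the sums do not stand for each marker.

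Of 7 epicardial and mesothelial markers, 0 passed in the first comparison, 5 were lower in the second and 6 in the third, with sums of 725 to 988, 671 to 935 and 316 to 421 over the 3 ages. All 6 markers of proliferating cells were lower at 10 weeks than at either younger age, 1 was lower at 7 days than at 24 hours, and their sums were 2340 to 2970, 2205 to 2291 and 178 to 258. Of 8 macrophage markers, 7 were higher in the first comparison and all 8 in both others, with sums of 1024 to 1117, 1618 to 1711 and 3406 to 3720. Of 10 cardiomyocyte markers, 2 were lower in the first comparison, 1 was higher and 1 lower in the second, and 2 were higher and 5 lower in the third. Without 7-day replicates 2 and 3 the higher calls of the first comparison were 5 for fibroblast, 0 for endothelial, 2 for mural and 4 for macrophage markers. The part of these cells in the collagen differences was not tested.

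Among the other tissues, 1 of 10 cartilage markers was lower in the first comparison, 1 was higher and 1 lower in the second, and 1 was higher and 3 lower in the third, with sums of 284 to 305, 261 to 335 and 246 to 334. Of 7 fat markers 0 passed in the first comparison, 1 was higher and 1 lower in the second and 1 was higher in the third, with sums of 301 to 337, 358 to 3657 and 338 to 449. Of 5 liver markers 1 was higher in the first comparison and 1 lower in the second, with sums of 94 to 140, 89 to 335 and 92 to 94. Of 5 lung markers 0 passed in any comparison, with sums of 82 to 144, 87 to 197 and 87 to 92. Of 4 Schwann cell markers 1 was higher in both later comparisons, with sums of 124 to 139, 131 to 135 and 131 to 138. On this log2 scale no marker can be at 0, and the part of these tissues in the collagen differences was not tested.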

How the data were processed

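The deposited values are log2 intensities, made with MAS5 5.0 per the submitters' processing notes. How arrays were normalized, how probes were summarised and which build was used is not given in the sources used here. Values ran from 1.853 to 13.583, above 11.09, the natural log of a 16-bit maximum. Of 35556 features, 21789 carried 1 gene symbol in the platform table, 1621 several, and the rest were unnamed here. Symbols were updated by Entrez id for 21698, and 999 genes had several probe sets. Ages came from the labels. In limma 3.58.1 (R 4.3.3), a model with the 3 age means took all 9 arrays (lmFit, eBayes with an intensity trend, 6 residual degrees of freedom, and Benjamini and Hochberg adjustment over 19938 genes). Calls were made where the adjusted p was under 0.05. The fit was tested on simulated data.

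The members, their classes and all gene lists were chosen with earlier results of these data known. Values per array are given for chains with a mean above the median of all genes and for the largest called changes of each class. For the lists of collagen folding, crosslinking, breakdown and receptors, up to 3 of the largest called changes per comparison are named. Marker lists cover fibroblasts, endothelium, mural cells, cardiomyocytes, epicardium and mesothelium, macrophages, cartilage, Schwann cells, fat, liver, lung and proliferating cells. Ratios between 4 chains were tested with an exact permutation test over arrays (Python 3.11.15, scipy 1.17.1). Alternatives covered array scaling, the variance prior, arrays and genes in the fit, probe set choice, a fold minimum, a replicate block and arrays left out. Leaving out 10-week replicates 1 and 2 together was chosen after the data were seen. An array has no sequencing depth, and the number of arrays limits the precision.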

Additional observations from a re-analysis of the deposited data

How the results depend on the processing

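Of 93 log2 differences of 31 named chains, 0 changed sign with a call under the alternatives run. The count of chains lower at 10 weeks stayed within 17 to 19 against 7 days and 15 to 17 against 24 hours when each array was left out. Small counts moved more. Higher chains at 7 days against 24 hours numbered 6, 4 to 10 with 1 array left out, 1 without both 7-day arrays that carry fat transcripts and 1 at 2-fold. Lower chains there numbered 0, 0 to 1 with 1 array left out (Col12a1 without 7-day replicate 2), 1 (Col12a1) without both those arrays, 1 (Col18a1) with only the 6 arrays compared in the fit and 1 (Col18a1) without 10-week replicates 1 and 2, a setting added after the data were seen. Higher chains at 10 weeks against 7 days numbered 1, but 4 with arrays centred on their medians, 3 after quantile normalization, 2 with dim genes left out and 1 to 3 with 1 array left out. Higher chains at 10 weeks against 24 hours numbered 3, but 1 with only those 6 arrays, 1 without both 7-day arrays, 2 without those 10-week arrays, 1 at 2-fold and 1 to 4 with 1 array left out.

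With dim genes left out, class medians rested on fewer chains, and the called chains Col11a1, Col9a1 and Col4a3 also dropped out. At 10 weeks against 7 days they were −1.08 for fibrillar, −1.14 for basement membrane, −1.31 for beaded filament and −0.16 for FACIT chains. Against 24 hours they were −0.91, −1.16 and −0.91 for the first 3 classes. Without both 7-day arrays the beaded filament median at 10 weeks against 7 days was −0.74, and the cause was not tested.

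The labels number the replicates of each age 1 to 3 and do not state whether same-numbered samples were paired. Same-numbered arrays of different ages deviated with correlations of −0.174 to 0.133, and differently numbered ones with −0.216 to 0.25. With 3 arrays per age this check cannot show whether the samples were paired. With the replicate block, 6 chains were higher and 0 lower at 7 days against 24 hours, 1 higher and 17 lower at 10 weeks against 7 days, and 3 higher and 16 lower at 10 weeks against 24 hours. The 1 call lost was that of Col9a1 (adjusted p = 0.0674).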
